A study of Mus musculus with 8 samples.

Results

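Bone, cartilage and fat cells arise from mesenchymal progenitors, and each lineage is directed by its own transcription factors. RUNX2 directs osteoblasts, SOX9 chondrocytes, and the C/EBP factors together with PPARγ adipocytes. Lymphoid stromal cells share the mesenchymal origin, and retinoic acid (RA) is known to act on all these lineages. To compare the lineages in a spleen stromal line, 10 genes were picked by their symbols: the osteoblast genes *Runx1*, *Runx2*, *Twist1* and *Alpl*, the chondrocyte gene *Sox9*, and the adipocyte genes *Cebpa*, *Cebpb*, *Cebpd*, *Lpl* and *Plin2*. A row was found for 8 of the 10, among 12589 genes in all. No row carried the symbol *Alpl* or *Cebpa*, so their levels were not analysed here.

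The cells were mSSC, a murine spleen stromal line marked with the fluorescent protein YFP and grown in serum-containing medium, which carries retinoids of its own. The sample labels list 4 cultures treated with the vehicle DMSO and 4 treated with BMS493, an inhibitor of RA receptor signaling, for 48 h. All 8 come from the same line, and the labels do not say whether they were separate experiments. RNA-seq was read here from the authors' mean log2 normalized expression, called the level below. Its name gives no sample or group, and it was taken as the mean over all 8 cultures. Such a mean weighs both treatments together, so DMSO and BMS493 cannot be told apart in any value that follows. Neither a spread between cultures nor a test of a difference can be given.

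The depth of each culture is unknown from this mean. Levels ran from -0.58 to 13.3 over all genes, with a median of 4.99. Converted back from the log2 scale, the levels of all genes added up to 989369, close to the total of CPM values, so a level can be read as about the log2 of CPM. Because a long transcript yields more reads, genes were ordered per kilobase, after division by the merged length of a gene's annotated exons. Where the undivided level or its percentile is given, it reflects reads and depends on length as well. Per kilobase the median over all genes was 2.85, the middle 50 percent lay between 1.42 and 4.15, and the top 10 percent began at 5.40. Those limits serve as the background for the lineage genes, since no comparison between groups could be called.

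The labelled cell type was checked first. Of 19 mesenchymal stroma markers 17 had a row, and 10 of these were in the top 10 percent per kilobase, led by *Acta2* (10.4), *S100a4* (9.96) and *Vim* (9.54). Below the median of all genes per kilobase lay *Mcam* (2.61), *Pdgfra* (1.92) and *Nt5e* (-2.41), and *Lepr* and *Lum* had no row. Transcription factors that pattern the spleen were present as well. *Tlx1*, which the spleen needs to form, had a level of 4.82, and *Nkx2-5* one of 3.58. Of 6 such factors 5 had a row, and *Tcf21* had none. Of 10 blood cell markers, *Ptprc* among them, 0 had a row. The endothelial list had 2 of 8, without a row for the defining gene *Cdh5*. *Kdr* had a level of 2.83 and -0.34 per kilobase, and *Pecam1* a level of 0.47 and -2.17 per kilobase. Epithelial genes were mixed: *Cdh1*, which encodes E-cadherin, had a level of 8.03, *Krt8*, *Krt14* and *Krt18* lay between 0.31 and 1.55, and *Epcam* and *Krt5* had no row. The part of such cells in the levels below was not tested.

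The 8 lineage genes spread around the middle of the transcriptome. Per kilobase their median was 2.93, at percentile 51.7 of all genes, with 4 of 8 above the median of all genes and 0 of 8 in the top 10 percent. *Plin2* and *Cebpb* lay above the middle 50 percent of all genes and *Lpl* just below it. The order per kilobase, from the highest, was *Plin2*, *Cebpb*, *Twist1*, *Runx1*, *Sox9*, *Runx2*, *Cebpd* and *Lpl*. The values ran from 4.61 for *Plin2* to 1.39 for *Lpl*, a difference of 3.22 on the log2 scale. Neighbours in this order were often close. *Twist1* and *Runx1* differed by 0.05, and *Plin2* and *Cebpb* by 0.25, and without a spread between cultures no neighbouring pair can be said to differ. The order also depends on the gene model: with the length of the longest transcript in place of the merged exons, *Runx1* moved to the third place, *Runx2* to the fifth, *Sox9* to the sixth, *Lpl* to the seventh and *Cebpd* to the last, while *Plin2* and *Cebpb* stayed first and second.

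**Figure D1:**
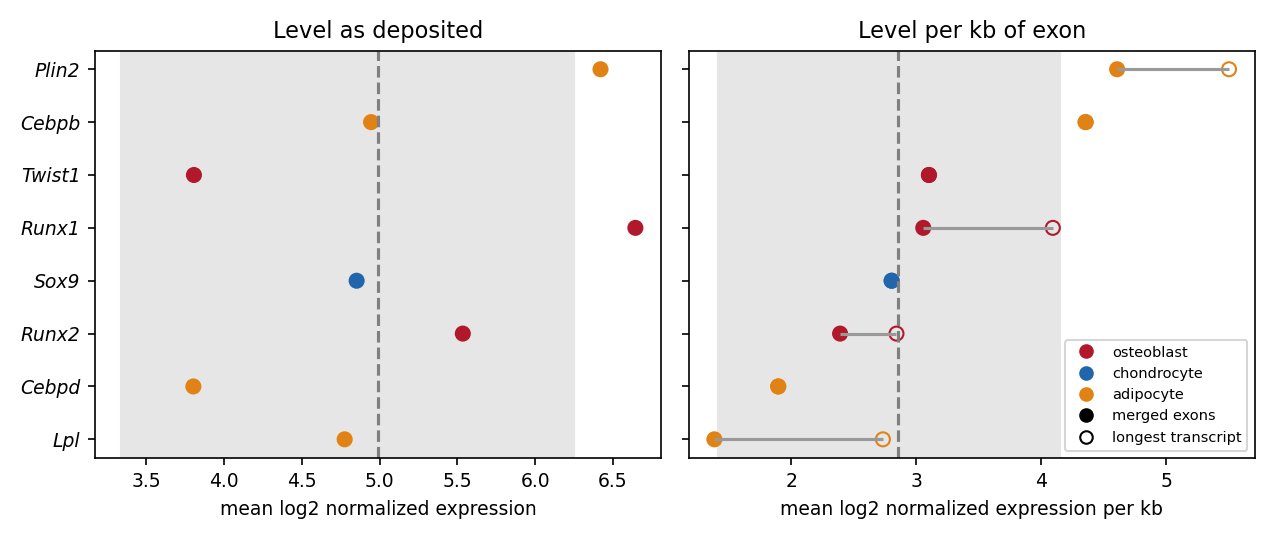
Levels of the 8 lineage genes with a row. Left, the authors' mean log2 normalized expression over all 8 cultures. Right, the same per kilobase, with filled points for merged exons and open points for the longest transcript. Dashed lines and grey bands show the median and the middle 50 percent of all genes. *Plin2* and *Cebpb* are the highest per kilobase with either length, whereas *Runx1* is the highest (6.64) before length is taken into account. No error bars can be drawn from a mean over all cultures.

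RUNX proteins bind DNA together with the partner CBFβ, and RUNX2 is required for bone formation, while RUNX1 is best known from blood development and is also present in mesenchymal cells. *Runx1* lies on the minus strand of chromosome 16 (92601466 to 92826149 of GRCm38), with 8 exons in its longest transcript. Its level was 6.64, at percentile 81.6 of all genes, but its merged exons span 12025 bp, longer than those of 94.4% of genes, and per kilobase it was at 3.06. *Runx2*, on the minus strand of chromosome 17 (44495987 to 44814797) with 7 exons, had a level of 5.53 and 2.39 per kilobase. *Runx1* was thus 1.59-fold higher than *Runx2* per kilobase. The difference was 0.67 on the log2 scale with merged exons and 1.25 with the longest transcripts, in the same direction. *Runx3*, the other member of the family, was lower, with a level of 1.83 and -0.49 per kilobase, at percentile 7.71. The shared partner *Cbfb* was higher than all of them, with 4.75 per kilobase.

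TWIST1 is a basic helix-loop-helix factor that restrains RUNX2 during osteoblast differentiation. *Twist1* is a small gene on the plus strand of chromosome 12 (33957671 to 33959829) with 2 exons and 1628 bp of exon. Its level of 3.81 was at percentile 30.9 of all genes, whereas its level per kilobase of 3.10 was at percentile 55.3. The gene therefore stood below *Runx2* in reads and above it per kilobase, by 0.71 on the log2 scale. Its close relative *Twist2* had 2.10 per kilobase. The factors acting with or after RUNX2 were mostly without a row: *Sp7*, which encodes the osteoblast factor osterix, *Dlx3*, *Dlx5* and *Msx1* had none, and *Msx2* had a level of -0.03. *Atf4*, a factor of osteoblasts and of the stress response in most cells, led the list with 7.84 per kilobase.

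Of 18 osteoblast markers 7 had a row. *Col1a1*, which encodes a chain of type I collagen, had a level of 13.3 and 10.6 per kilobase, and *Sparc* and *Col1a2* had 9.49 and 8.84 per kilobase. These genes are also made by fibroblasts in general. *Pdpn* had 6.16 per kilobase, and *Spp1*, which encodes osteopontin, had 5.62. Whether these genes mark osteoblasts in this stromal line was not tested. For *Alpl*, the phosphatase that frees phosphate for mineral, and for *Phospho1*, *Phex*, *Ibsp*, *Bglap*, *Bglap2*, *Dmp1*, *Mepe*, *Sost*, *Omd* and *Ifitm5* no row was found. *Enpp1*, which makes the mineral inhibitor pyrophosphate, was at -2.60 per kilobase, whereas *Ank*, whose product is needed to export it, was at 4.75.

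SOX9 switches on the genes of the cartilage matrix. *Sox9*, on the plus strand of chromosome 11 (112782224 to 112787760) with 3 exons, had a level of 4.85. Per kilobase it was at 2.80, percentile 48.9 of all genes. Its usual partners were lower or without a row: *Sox5* was at 0.23 per kilobase and *Sox6* had no row. *Wwp2*, a ubiquitin ligase gene that SOX9 activates in cartilage, had 3.77 per kilobase. *Nkx3-2*, a cartilage factor that also takes part in spleen development, had 3.41. Most cartilage matrix genes had no row. This held for *Col2a1*, *Acan*, *Col9a1*, *Col9a2*, *Col9a3*, *Col10a1*, *Comp*, *Matn1*, *Cnmd*, *Hapln1*, *Snorc*, *Chad* and *Mia*, as it did for the growth plate signals *Ihh* and *Pthlh* and the factor *Barx2*. The 5 markers with a row were led by *Col11a1* (4.00 per kilobase), *Fmod* (2.40) and *Prg4* (1.00), of which *Col11a1* and *Fmod* are also matrix genes of other connective tissues.

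C/EBPβ and C/EBPδ act early in adipocyte differentiation, before C/EBPα and PPARγ. *Cebpb*, on the plus strand of chromosome 2 (167688915 to 167690418), consists of 1 exon of 1504 bp. Its level of 4.94 was at percentile 49.2, and per kilobase it was at 4.36, percentile 78.4. *Cebpd*, also of 1 exon, lies on the plus strand of chromosome 16 (15887286 to 15891031), with a level of 3.80 and 1.90 per kilobase. *Cebpb* was thus 5.50-fold higher than *Cebpd* per kilobase, a difference of 2.46 on the log2 scale. Before division by length the difference was 1.14. For both genes the merged exons and the longest transcript have the same length, so that choice cannot change the value. Among relatives, *Cebpg* had 3.10 per kilobase and *Ddit3*, which encodes the stress-induced inhibitor CHOP, had 7.51. *Pparg*, the master regulator of fat cells, was at 1.44 per kilobase, percentile 25.4 of all genes. *Dlk1*, which encodes a preadipocyte protein that holds back fat cell formation, was at 5.16. *Klf4* (6.86) stood high in this list too, while *Ebf2* and *Zfp423*, which mark preadipocytes, had no row. The remaining regulators of the list had a row. Per kilobase, *Srebf1* was at 4.65 and *Rxra* at 3.51, above the median of all genes. Below it lay *Gata2* (2.84), *Klf5* (1.19), *Gata3* (0.50), *Ebf1* (0.06), *Prdm16* (-1.05) and *Klf15* (-1.41).

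Among the genes of lipid storage, *Plin2* encodes the coat protein found on lipid droplets of most cell types. It lies on the minus strand of chromosome 4 (86648386 to 86670060), and its level was 6.42, with 4.61 per kilobase at percentile 81.6. *Plin3*, the other perilipin of wide expression, was close to it with 4.70 for merged exons. With the longest transcript *Plin3* was lower, at 4.76 against 5.50 for *Plin2*. The perilipins of fat and muscle cells were low or without a row: *Plin4* was at -2.26 per kilobase, and *Plin1* and *Plin5* had no row. *Lpl* encodes the lipase that frees fatty acids from circulating lipoproteins. It lies on the plus strand of chromosome 8 (68880491 to 68907448), and its level was 4.77. Per kilobase it was at 1.39 (percentile 24.6) with merged exons of 10478 bp, but at 2.73 with a longest transcript of 4115 bp (percentile 39.2). *Lmf1*, needed for the lipase to mature, was at 0.33 with merged exons and 2.15 with the longest transcript. The inhibitor *Angptl4* was at 4.95 and 5.05. *Gpihbp1*, the lipase's carrier in capillaries, had no row. *Fabp5* (4.96) led the list with merged exons, whereas *Plin2* led it with the longest transcript (5.50 against 5.10). No row was found for the mature fat cell genes *Adipoq*, *Lep*, *Cfd*, *Retn*, *Fabp4*, *Cd36*, *Cidea*, *Cidec*, *Slc2a4*, *Gpd1* and *Ucp1*. The remaining genes of the list did have a row. Per kilobase, *Pnpla2* was at 3.33, *Dgat1* at 2.76, *Mgll* at 1.42, *Lipe* at -0.09 and *Dgat2* at -0.22.

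**Figure D2:**
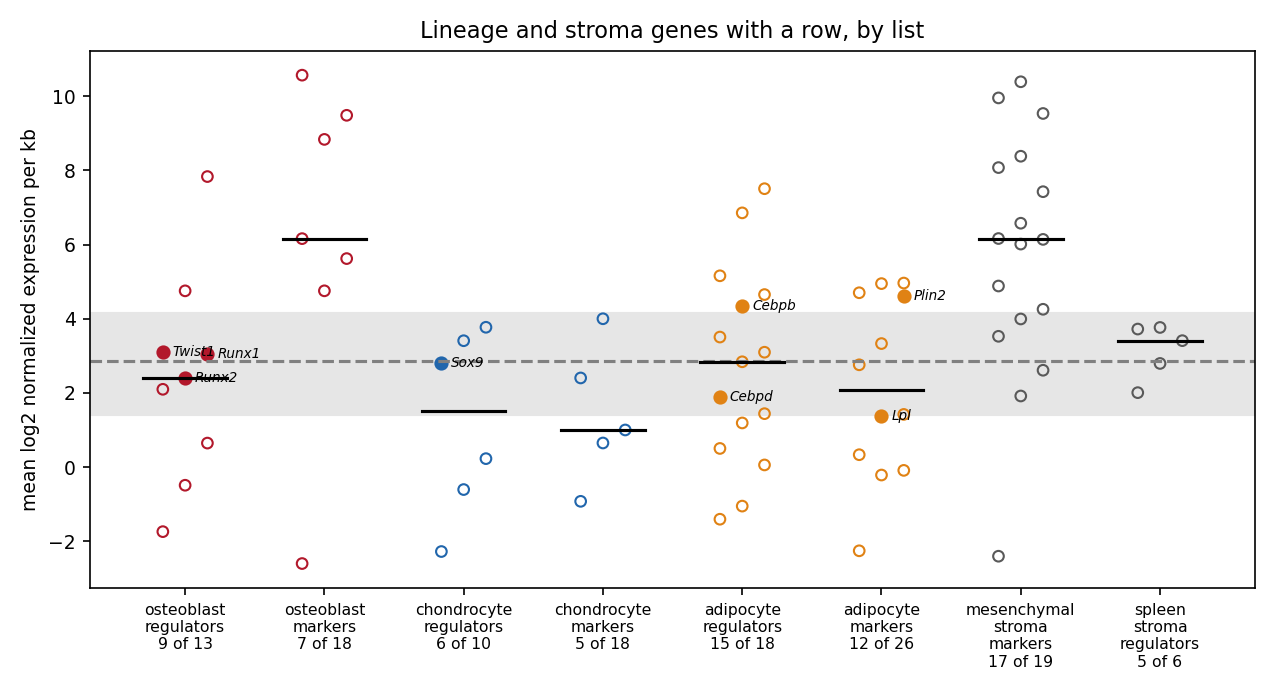
Level per kilobase (merged exons, log2) of every gene with a row in the lineage and stroma lists. Filled, named points are the 8 lineage genes of the report, open points the other genes, black bars the list medians, and the dashed line and grey band the median and middle 50 percent of all genes. The number under each list gives genes with a row out of genes listed. Medians run from 1.00 for chondrocyte markers to 6.16 for osteoblast markers. The osteoblast marker median is the value of *Pdpn*, and whether this gene marks osteoblasts in a stromal line was not tested. The values above it are those of *Col1a1*, *Sparc* and *Col1a2*, which fibroblasts in general also make.

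Over the lists as a whole, regulators had a row more often than differentiation markers. Of 41 lineage regulators 30 had one (73.2%), against 24 of 62 markers (38.7%), beside 52.4% of the 21924 protein-coding genes of the annotation. This order held in each lineage: 9 of 13 and 7 of 18 for osteoblasts, 6 of 10 and 5 of 18 for chondrocytes, and 15 of 18 and 12 of 26 for adipocytes. Above the median of all genes per kilobase lay 4 of the 9 osteoblast regulators with a row, 2 of 6 chondrocyte regulators and 7 of 15 adipocyte regulators, and 6 of 7, 1 of 5 and 5 of 12 of the markers. The lists were chosen by hand, so these counts describe them and no test was made. A gene without a row may have been filtered for a low level or left out for another reason, which cannot be told apart here.

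**Figure D3:**
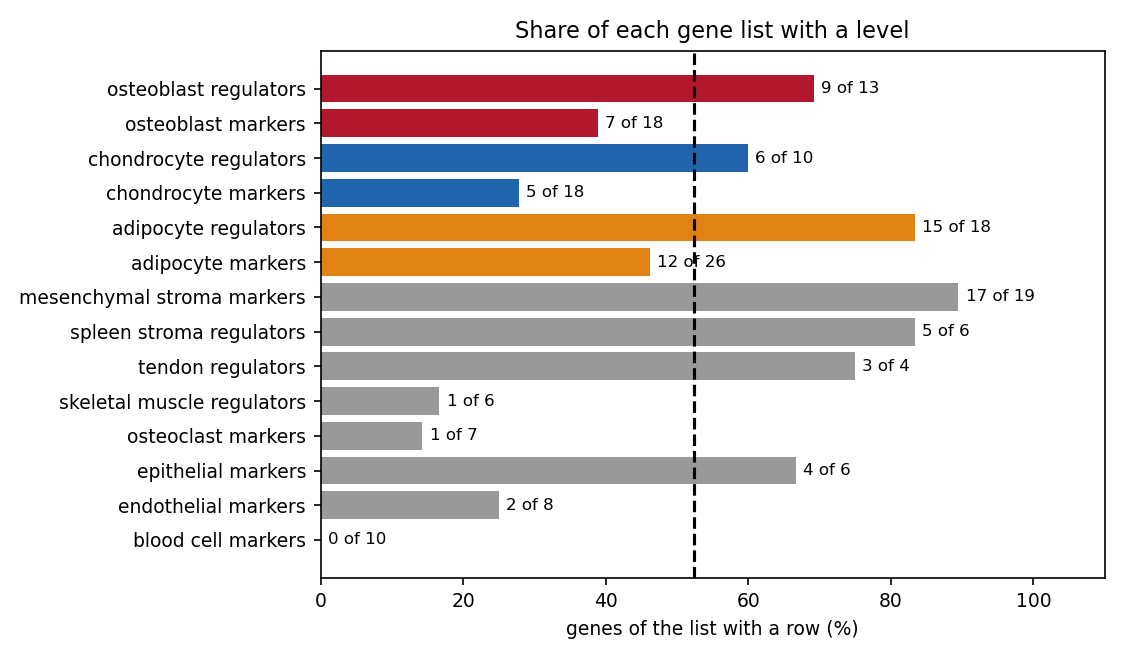
Share of each gene list with a row (bars, percent of the genes listed), with the counts beside the bars. The dashed line marks the 52.4% of protein-coding genes with a row. In each of the 3 lineages the bar of the regulators passes this line and that of the markers stays under it, and the blood cell list has 0 of 10.

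Regulatory sequence was looked at beside these levels. RefSeq promoters on GRCm38.p6 were matched by symbol for 7 of the 10 genes (not *Sox9*, *Cebpd* and *Lpl*), 9 promoters in all, and the 250 bases before each start were used. CpG pairs, the sites of DNA methylation that crowd in the promoters of many widely expressed genes, numbered 41 for *Cebpb*, more than in 99.0% of 32851 mouse promoters. *Cebpa*, without a row, had 22 (percentile 85.9), and *Plin2*, the highest of the 8 genes per kilobase, had 6, the median of all promoters. A CpG-rich promoter therefore occurred both with and without a row. To show this contrast the 3 sequences are printed, from chr2:167688665-167688914 (plus strand, *Cebpb*), chr7:35119043-35119292 (plus strand, *Cebpa*) and chr4:86670060-86670309 (minus strand, *Plin2*), with the CpG pairs in capitals.

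Cebpb: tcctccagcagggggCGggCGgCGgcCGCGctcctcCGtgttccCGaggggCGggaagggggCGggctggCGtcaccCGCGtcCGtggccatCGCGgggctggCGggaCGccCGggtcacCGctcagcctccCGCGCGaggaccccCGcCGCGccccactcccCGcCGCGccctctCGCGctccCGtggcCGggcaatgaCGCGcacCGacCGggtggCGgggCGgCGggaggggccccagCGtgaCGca

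Cebpa: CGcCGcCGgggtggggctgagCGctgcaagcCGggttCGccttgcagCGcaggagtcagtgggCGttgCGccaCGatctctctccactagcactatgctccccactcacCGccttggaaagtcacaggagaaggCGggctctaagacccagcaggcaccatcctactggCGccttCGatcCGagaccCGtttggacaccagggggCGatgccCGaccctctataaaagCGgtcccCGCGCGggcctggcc

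Plin2: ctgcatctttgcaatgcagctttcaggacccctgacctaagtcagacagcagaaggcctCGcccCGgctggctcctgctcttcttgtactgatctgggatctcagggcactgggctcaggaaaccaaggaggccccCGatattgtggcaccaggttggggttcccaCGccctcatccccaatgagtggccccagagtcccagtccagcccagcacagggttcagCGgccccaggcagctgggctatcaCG

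The 2 annotated *Runx1* promoters differed in the same feature, with 27 CpG pairs at the proximal start (92697329) and 2 at the distal start (92826074). *Runx2* had 0 CpG pairs and *Twist1* 18. The level sums the reads of a gene and does not show which start was used. Motifs were searched on both strands and may overlap. The RUNX motif TGTGGT was found in the *Runx2* promoter only among the 9, against 14.0% of all promoters, and so was the C/EBP motif TTNNGCAA, against 9.56%. The half-site of RA receptors, AGGTCA, occurred before the *Runx2*, *Plin2* and the inner *Alpl* start, against 14.0% of all promoters. TATAAA was found before *Twist1*, *Cebpa* and the inner *Alpl* start (12.4% of all promoters). An E-box, CANNTG, occurred in 5 of the 9 promoters and in 66.2% of all. These are matches of letters and were not set against binding or expression.

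Some exons are shared with genes on the opposite strand. *Tmem189* covers 20.7% of the exon bases of *Cebpb* and had a level of 4.99 itself, and *Spidr* covers 15.0% of those of *Cebpd*. *Runx2os1* covers 5.87% of *Runx2*. The libraries were made with a stranded kit, but whether the counting used the strand is not given in the sources used here. If it did not, reads of *Cebpb* and *Tmem189* in the shared bases cannot be told apart. GC content differed between the genes as well. The transcript of *Cebpb* holds 67.2% G and C, more than 99.9% of genes, against 43.5% for *Lpl* and 49.6% for the median gene. Its part in the levels was not tested.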

How the data were processed

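RNA-seq of 8 mSSC cultures, 4 per treatment by the sample titles, was read from 1 table. Per the paper's methods, the authors used STAR (2.3.0e in the submitters' notes) for alignment to mm10. Reads with a unique position were assigned to Ensembl genes by Rsubread, and the counts were normalized by the trimmed mean of M-values method. The deposited table gives the authors' mean log2 normalized expression, with decimal commas. The column's name gives a mean and no sample or group, so it was taken to cover all samples. Its other 4 columns hold the authors' own comparison of BMS493 with DMSO (log2 fold change, t, p-value, adjusted p-value) and were not used. The mean has no spread, so the planned test of BMS493 against DMSO could not be run.

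Gene models came from GENCODE M21 (GRCm38). Of the table's symbols 11783 were found there directly and 604 through a RefSeq synonym, and 202 stayed unmatched. Of several gene models with a symbol, the protein-coding and then the longest was kept. Merged exon length, longest transcript and GC content came from that annotation, which is not the Ensembl release the authors counted on. The level per kilobase is the level minus the log2 of the length in kilobases. Percentiles of the undivided level are over all genes. Those per kilobase, of exon length and of GC content are over the genes with a matched gene model. Promoter sequences were taken from RefSeq (GRCm38.p6). The steps were tested on simulated data and run in Python 3.11.15 with numpy 2.4.6, pandas 2.3.3 and matplotlib 3.10.9.

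The 10 genes and the lists were chosen with earlier results of these data known. The text names the 10 genes, their families, and from each lineage list the 3 genes highest per kilobase and those without a row. Other named genes (*Dlk1*, *Pparg*, *Klf4*, *Spp1*, *Ank*, *Enpp1*, *Msx2*, *Lmf1*, *Angptl4* and the marker genes of the cell type check) were chosen after their values were seen. The same holds for *Pnpla2*, *Dgat1*, *Mgll*, *Lipe*, *Dgat2* and *Pdpn*. It also holds for the adipocyte regulators *Srebf1*, *Rxra*, *Gata2*, *Klf5*, *Gata3*, *Ebf1*, *Prdm16* and *Klf15*. Some listed genes are not reported here. Alternatives were the longest transcript, no division by length, protein-coding genes only, and genes with a level of at least 1.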

Additional observations from a re-analysis of the deposited data

How the results depend on the processing

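No paired analysis was possible because the mean covers all 8 cultures together. Single cultures could thus not be left out, and another scaling or a filter on single values was not run. Of the 4 alternatives, only the choice of length moved a gene across the median of all genes. With the longest transcript, 3 osteoblast regulators lay above the median of all genes in place of 4. The adipocyte regulators above it were then 8 in place of 7, and the adipocyte markers 6 in place of 5. Without division by length, 1 chondrocyte regulator lay above the median of all genes in place of 2, and 4 adipocyte markers in place of 5. In that setting *Runx2* rose from percentile 40.8 to 60.8 of all genes, *Twist1* fell from 55.3 to 30.9 and *Cebpb* from 78.4 to 49.2, each crossing the median. With the longest transcript *Twist1* was at percentile 46.4, which also crosses it, and *Lpl* rose from 24.6 to 39.2. In both settings 3 of the 8 lineage genes lay above the median, in place of 4, and 0 in the top 10 percent. Among protein-coding genes only, and among genes with a level of at least 1, all 8 genes kept their side of the median. The unknown spread between cultures limits every order given here.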

Other observations

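Outside the 3 lineages, *Egr1*, *Scx* and *Mkx* of the tendon list had levels per kilobase of 6.05, 2.78 and 0.45, and *Tnmd* had no row. *Scx*, the tendon factor that often acts beside SOX9, was therefore close to *Sox9* (2.80). Of the skeletal muscle factors only *Pax3* had a row, with a level of 5.26, and *Myod1*, *Myf5*, *Myf6*, *Myog* and *Pax7* had none. *Ctsk* was the only osteoclast gene of 7 with a row, with a level of 4.43 and 3.84 per kilobase, and it is also made by fibroblasts. These lists were chosen by hand and no test was made.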
